A study of Mus musculus with 3 samples.

Results

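Cluster 7 is a group of columnar colon cells from the mouse anorectal junction, the place where the lining of the colon meets the skin-like lining of the anus. Its members are all cells that carry the number 7 in the authors' deposited cell table, in which every one of them is named a colonocyte, the general term for the absorptive cells of the colon. They number 2254 of 37080 cells, and 1809 came from day 0, 33 from day 7 and 412 from day 42. Single-cell RNA sequencing was used to follow this tissue through acute colitis and recovery. Wildtype C57Bl/6 mice, bought at 6 weeks of age, were given 3% dextran sulfate sodium (DSS), a polymer that injures the gut lining, in their drinking water for 6 days. The day 0 group was untreated and histologically normal, the day 7 group had severe colitis, and the day 42 group had recovered, while day 7 and day 42 mice had both received DSS. Distal colon and anus of 5 mice were pooled for each day, digested with trypsin, cleared of dying cells by Annexin V selection and made into 1 10x Chromium 3' library per day.

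The lining of the colon is folded into crypts. Stem cells marked by Lgr5 sit at the crypt base, their daughters divide a few times in the lower crypt, and the cells then stop dividing and mature into absorptive or goblet cells as they move towards the surface. DSS damages this lining, and crypt cells renew it.

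With 1 pooled library per day, no difference between days could be tested against the spread between mice, and no p-value or standard error is given. Values are summed over the cells of a cluster and written as CPM, the number of a gene's unique molecular identifiers (UMIs, 1 per captured RNA molecule) per 1000000 UMIs of that cluster and day. Square brackets hold exact 95% intervals (Poisson for CPM and their ratios, Clopper-Pearson for shares of cells), which cover counting error only. The summed depth of cluster 7 was 27061547 UMIs at day 0, 1015137 at day 7 and 4770652 at day 42, with a median of 14084, 29614 and 9607 UMIs per cell and median mitochondrial shares of 7.95%, 7.27% and 6.95%. The 33 cells of day 7 fall below the minimum of 50 cells set for a comparison, so their values are printed beside the others as a description and were not used to choose genes. A total of 8, 1 and 3 cells of the cluster at days 0, 7 and 42 carried a barcode that also occurs in another library.

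Cluster 7 made up 42.0% [40.5, 43.5] of the columnar cells at day 0 (1809 of 4306 in clusters 2, 7, 15, 22 and 24), 3.11% [2.15, 4.34] at day 7 (33 of 1062) and 24.5% [22.5, 26.7] at day 42 (412 of 1680). The share was lowest in the colitic library and lay between the other libraries at recovery. As a share of all epithelial cells, squamous cells included, the values were 23.7%, 0.327% and 4.27%. Cluster 2, the largest columnar cluster, took 45.0%, 66.2% and 63.8% of columnar cells, and cluster 15, the goblet-rich one, 11.1%, 3.30% and 10.7%. Cluster 22 was nearly confined to day 7, with 279 cells there against 4 at day 0 and 5 at day 42.

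These shares depend on which cells are counted. At day 0, 71.3% of cluster 2 cells had more than 20% mitochondrial UMIs, against 11.9% of cluster 7 cells, and at day 42 the figures were 32.0% and 3.40%. Among cells with at least 1000 UMIs, at least 500 genes and at most 20% mitochondrial UMIs, cluster 7 held 65.6% of columnar cells at day 0 and 32.5% at day 42. Some genes that set cluster 7 apart, Defb45 and Fut9 among them, were also lower at the later days, although 8 of the 15 leading genes named below were higher at day 42 than at day 0, so a smaller cluster and a lower level of its defining genes cannot be told apart here.

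**Figure D1:**
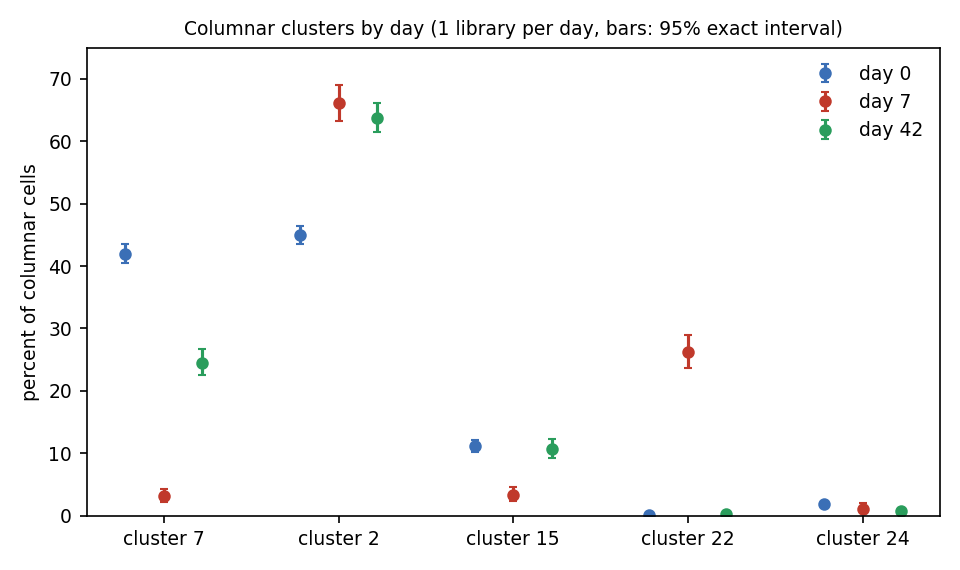
Share of the columnar cells of each day (percent, vertical axis) held by each of the 5 columnar clusters, with exact 95% intervals. Each point is 1 pooled library, and cluster 7 stands at 42.0% on day 0, 3.11% on day 7 and 24.5% on day 42.

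The genes that led cluster 7 over the other columnar clusters pooled had mixed roles, from a defensin to cell division genes. Levels are compared as the log2 ratio of CPM with 10 CPM added to both sides, so a value of 1 is about 2-fold and changes of low genes are understated. The clusters were built from these same genes, so this is a description of what the cluster is. At day 0 the 15 leading genes, among those with at least 100 CPM, ran from Defb45 (log2 ratio 2.98), a beta-defensin gene, and Stmn1 (2.86), which encodes a microtubule-destabilising protein of dividing cells, down to Sult1a1 (2.11). Histone gene Hist1h1b (2.86), Kcne3 (2.72), Clca3b (2.67), Ube2c (2.65), Birc5 (2.60), Gpx2 (2.58), Fut9 (2.55), Mki67 (2.48), Tubb5 (2.36), Top2a (2.33), Gstm1 (2.23) and Mecr (2.13) stood between them. Of the 15, 4 were on the mitosis or DNA replication lists, and all 15 were again at least 2-fold over the other columnar clusters at day 42.

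The 6 marker genes listed for the cluster did not all separate it. Stmn1 (chr4:134468320-134473843) stood at 502 CPM [494, 511] at day 0, 411 [372, 452] at day 7 and 441 [423, 461] at day 42, while cluster 2 had 35.2 and 31.7 CPM at days 0 and 42. Kcne3 (chr7:100176502-100184869), a subunit of the basolateral potassium channel that drives chloride secretion, stood at 214 [209, 220], 94.6 [76.6, 115] and 222 [209, 235] CPM, against 24.1 and 25.7 in cluster 2. Both genes were close at days 0 and 42, and Kcne3 was lower in the 33 cells of day 7. Gpx2 (chr12:76792333-76795554), the glutathione peroxidase of the gut epithelium, stood at 1402 [1388, 1416], 1329 [1259, 1402] and 1737 [1699, 1774] CPM, with 127 and 202 in cluster 2 and 590 and 975 in cluster 15 at days 0 and 42. Mki67 (chr7:135689784-135716361), which coats mitotic chromosomes and marks cycling cells, stood at 182 [177, 187], 299 [267, 335] and 245 [232, 260] CPM. Defb45 (chr2:152593191-152599399) stood at 157 [153, 162], 40.4 [28.98, 54.8] and 75.3 [67.7, 83.5] CPM, highest at day 0 with no overlap of the counting intervals. Sycn (chr7:28540885-28542209), which encodes the granule protein syncollin, did not mark the cluster: at day 0 it was as high in cluster 2 (2685 CPM) as in cluster 7 (2618 CPM). Coordinates are those of GENCODE M21 on GRCm38.

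**Figure D2:**
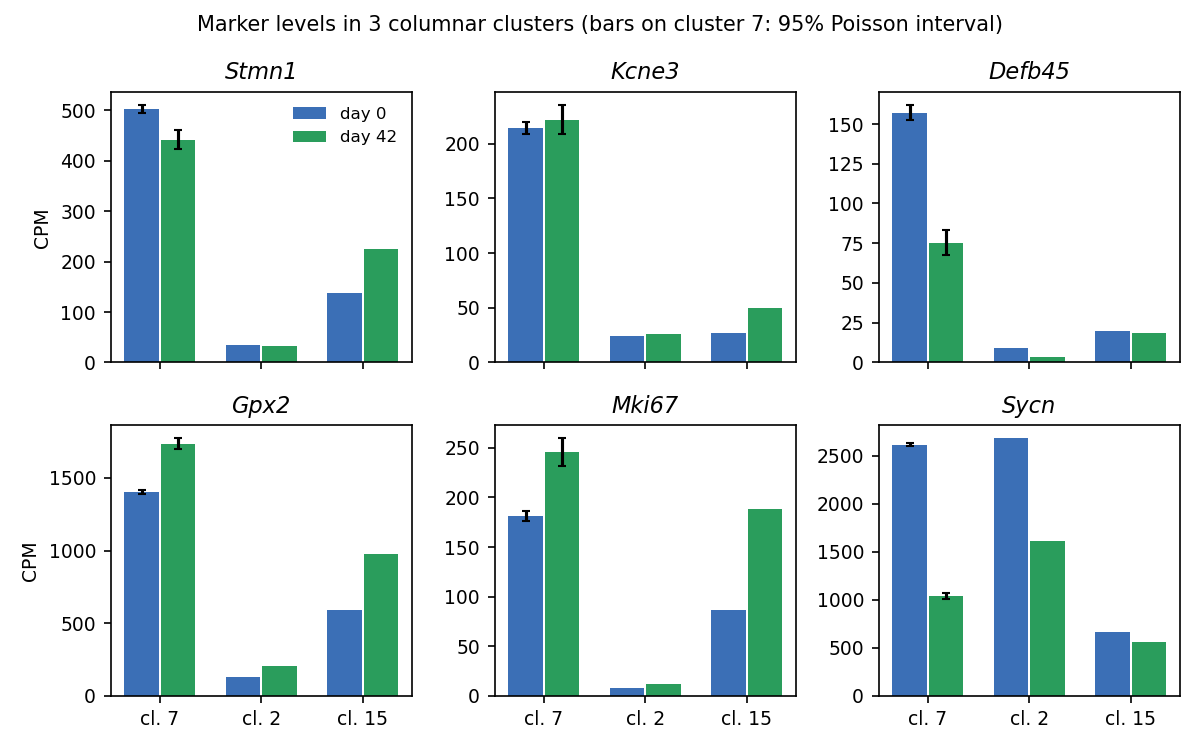
Level of the 6 listed markers (CPM, linear axes from 0) in clusters 7, 2 and 15 at days 0 and 42, 1 pooled library per day, with exact 95% Poisson intervals on cluster 7. Stmn1, Kcne3, Defb45, Gpx2 and Mki67 are highest in cluster 7, whereas Sycn is as high in cluster 2 at day 0 (2685 against 2618 CPM).

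The broader lists held more division and less maturation transcripts than cluster 2. Summed over 41 mitosis genes, cluster 7 had 2972 CPM at day 0 against 260.0 in cluster 2 and 1449 in cluster 15, and over 28 DNA replication genes 1144 against 171 and 391. Genes of ribosome biogenesis, the work of growing cells, summed to 3597 CPM against 940.2 in cluster 2 and 2307 in cluster 15. Genes of the mature absorptive surface, such as Car1 and Slc26a3, summed to 3380 CPM in cluster 7 and 18584 in cluster 2, and goblet genes to 3873 CPM in cluster 7 (2618 of them Sycn) and 41155 in cluster 15. Columnar identity was present throughout: an Epcam UMI was found in 99.8%, 100% and 99.8% of cluster 7 cells at days 0, 7 and 42, at the median depths above, and in 9.13%, 14.4% and 4.96% of T cells, whose median depth was 2064, 2260 and 1393 UMIs. Thinned to 1000 UMIs per cell, the Epcam shares were 76.3%, 87.9% and 88.3% in cluster 7 and 3.08%, 4.63% and 5.56% in T cells.

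Markers of other cell types moved with the day inside the cluster. Columnar identity genes had a median log2 ratio of day 42 to day 0 of 0.20, with 8 of 10 above 0. Cdx2, an intestinal transcription factor, passed 2-fold from low levels, at 0.370, 2.96 and 11.1 CPM on days 0, 7 and 42. The 10 keratinocyte markers summed to 1369, 5522 and 2519 CPM at days 0, 7 and 42, with none at 0, and the 7 fibroblast markers to 229, 3.94 and 5.66 CPM, with 4 at 0 on day 7 and 3 at 0 on day 42. T cell markers summed to 2.99, 17.7 and 1.89 CPM, endothelial markers to 3.29, 0.985 and 3.14, B and plasma cell markers to 2.07, 0 and 4.82, erythroid markers to 22.8, 16.8 and 1.47, and the 10 myeloid markers to 5.62, 182 and 115 CPM, of which S100a8 and S100a9 held nearly all at days 7 and 42 but not at day 0. The part of free RNA and of mixed cells in the differences between days was not tested.

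Cells rich in mitosis transcripts were a minority of the cluster at day 0 and a larger share at days 7 and 42. A cell was counted as rich in mitosis transcripts where at least 20 of every 10000 of its UMIs came from the 41 mitosis genes, a limit chosen after the data were seen. At day 0, 420 of 1809 cells lay at or above it, which is 23.2% [21.3, 25.2]. At day 7 it was 22 of 33 cells, or 66.7% [48.2, 82.0], and at day 42 it was 146 of 412 cells, or 35.4% [30.8, 40.3]. The order day 0, day 42, day 7 was kept when every cell was thinned to 1000 UMIs, with 29.9%, 42.8% and 69.7%. In cluster 2 the shares were 0.981%, 1.31% and 1.14% in that order, and in cluster 15 they were 7.31% at day 0 and 14.0% at day 42. The limit is a point on a range: 132, 41 and 6 cells of cluster 7 at days 0, 42 and 7 lay within 1.5 times of it.

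Cells rich in DNA replication transcripts, by the same limit on the 28 replication genes, did not follow that order. Their share of the cluster on days 0, 7 and 42 was 16.1% [14.4, 17.9], 27.3% [13.3, 45.5] and 14.1% [10.9, 17.8], and the intervals overlap. Thinned to 1000 UMIs, they were 23.9% [21.99, 26.0], 48.5% [30.8, 66.5] and 21.7% [17.8, 26.0], so that day 7 stood above the other days at equal depth while days 0 and 42 still overlapped. A Mki67 UMI was found in 39.0%, 84.8% and 47.8% of cells at days 0, 7 and 42, and after thinning to 1000 UMIs in 9.89% [8.56, 11.4], 18.2% [6.98, 35.5] and 12.9% [9.81, 16.5]. The thinned shares overlap between days. In T cells, which can also divide, the Mki67 shares were 8.68%, 7.63% and 5.79% unthinned and 4.62%, 1.85% and 5.56% thinned.

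**Figure D3:**
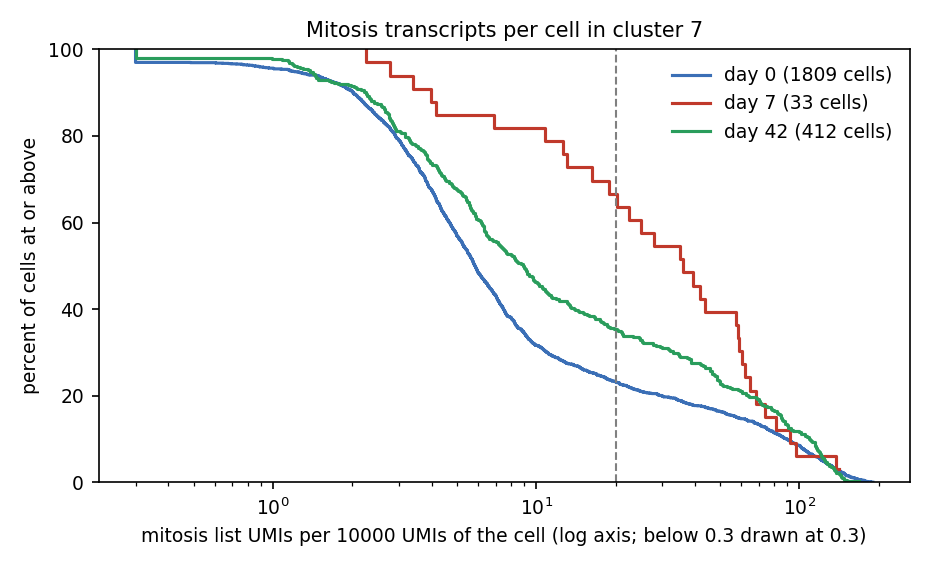
Percent of cluster 7 cells (vertical axis) with at least a given number of mitosis list UMIs per 10000 UMIs of the cell (log horizontal axis), 1 line per day. At the dashed limit of 20 the lines stand at 23.2% for day 0, 35.4% for day 42 and 66.7% for the 33 cells of day 7.

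Summed over the cluster, the mitosis genes were slightly higher at day 42 than at day 0. Of the 41 mitosis genes, 37 had a log2 ratio above 0, the median was 0.29 and none passed 2-fold, beside a median of 0.01 over all 9963 genes tested, of which 5269 (52.9%) were above 0. These are the values against which the counts of every list stand. The mitosis list had a median of 0.71 in cluster 15 and of 0.16 in cluster 2, where 11 of its genes reached 5 CPM. Cenpe, a kinetochore motor, stood at 48.2, 102 and 84.3 CPM at days 0, 7 and 42 (log2 ratio of day 42 to day 0 0.70 [0.50, 0.89]). Anln, which builds the cleavage furrow, stood at 19.5, 76.8 and 38.4 CPM (0.71 [0.46, 0.96]), and Cdc20, which activates the anaphase-promoting complex, at 57.1, 108 and 92.9 CPM (0.62 [0.43, 0.80]).

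The replication genes leaned the other way in cluster 7. Their median was -0.12, with 4 of 28 above 0 and none past 2-fold, and among only the mitosis-rich cells it was -0.43. In cluster 15 the replication median was 0.29, and in cluster 2 it was 0.09. Pcna, the sliding clamp of DNA polymerase, stood at 86.2, 93.6 and 53.9 CPM at days 0, 7 and 42 (log2 ratio -0.59 [-0.80, -0.39]), and Uhrf1, which guides DNA methylation at the replication fork, at 46.4, 62.1 and 31.4 CPM (-0.44 [-0.69, -0.20]). The MCM helicase genes, which open the double helix, lay between -0.28 (Mcm7) and 0.07 (Mcm5). Stmn1 within the mitosis-rich cells was 1056 CPM at day 0 and 727 at day 42. Ribosome biogenesis genes had a median of 0.13 and 16 of 20 above 0, led by Odc1, the first enzyme of polyamine synthesis, at 85.7, 175 and 126 CPM (0.51 [0.35, 0.67]).

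Promoters of the mitosis and replication genes were searched for short motifs, and no difference between the lists was tested. The windows, from 250 bases before to 50 after the RefSeq transcript start on GRCm38.p6, were searched on both strands for TTTGAA (the letters of the cell cycle homology region, CHR), for CCAAT, and for TTTCCCGC or TTTGGCGC (2 forms of the E2F site). TTTGAA was found in 29 of 39 windows of mitosis genes, or 74.4%, in 3 of 30 windows of replication genes, or 10.0%, and in 17.9% of all 32851 windows. CCAAT was found in 79.5%, 60.0% and 37.4% of the same windows, and the E2F letters in none, 26.7% and 1.56%. The windows matched 37 of 41 mitosis and 25 of 28 replication genes. A match is a match of letters and not a measured site. Mki67 and Ube2c are shown because they lead the cluster and hold both kinds of letters, and Birc5, another leading mitosis gene, because this window holds none of them. Each sequence runs 5′ to 3′ along the gene's own strand, and capitals mark these letters on either strand.
Mki67, chr7:135716330-135716629, minus strand: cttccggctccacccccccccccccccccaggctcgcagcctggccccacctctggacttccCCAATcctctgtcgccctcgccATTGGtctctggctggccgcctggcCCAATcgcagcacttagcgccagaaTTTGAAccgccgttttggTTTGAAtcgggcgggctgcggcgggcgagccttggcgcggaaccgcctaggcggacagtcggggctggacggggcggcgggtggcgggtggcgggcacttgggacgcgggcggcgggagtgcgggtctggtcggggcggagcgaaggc
Ube2c, chr2:164769679-164769978, plus strand: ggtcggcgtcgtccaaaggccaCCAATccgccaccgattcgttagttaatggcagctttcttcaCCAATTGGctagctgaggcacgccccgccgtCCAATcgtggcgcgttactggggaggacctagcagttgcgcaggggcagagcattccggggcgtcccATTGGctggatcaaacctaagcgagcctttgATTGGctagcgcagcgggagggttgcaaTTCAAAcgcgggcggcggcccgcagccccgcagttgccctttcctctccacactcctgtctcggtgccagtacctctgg
Birc5, chr11:117848987-117849286, plus strand: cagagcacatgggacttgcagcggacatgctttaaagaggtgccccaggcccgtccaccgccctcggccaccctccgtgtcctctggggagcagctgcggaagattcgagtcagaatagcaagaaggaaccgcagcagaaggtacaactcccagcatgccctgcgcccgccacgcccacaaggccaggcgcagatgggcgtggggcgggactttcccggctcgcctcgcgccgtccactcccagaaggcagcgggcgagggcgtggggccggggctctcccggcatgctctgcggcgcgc

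The crypt base stem cell list summed to 1034, 505 and 972 CPM in the cluster at days 0, 7 and 42. The list was not highest here: at days 0 and 42 it summed to 1536 and 1284 CPM in cluster 15 and to 313 and 452 CPM in cluster 2. Lgr5, the receptor that marks colon stem cells, gave 304 UMIs at day 0 (11.2 CPM [10.0, 12.6]), 0 at day 7 and 5 at day 42 (1.05 CPM [0.340, 2.45]). The 0 of day 7 was set to a floor of 3 counts (2.96 CPM), which is 3.8-fold lower than day 0. The exact upper limit was higher, at 3.63 CPM, so 3.8-fold is not a bound. A Lgr5 UMI was found in 8.84% of cells at day 0, 0% at day 7, where the floor of 3 cells in 33 is 9.09% and the exact upper limit 10.6%, and 1.21% at day 42, and in no T cell of any day. After thinning to 1000 UMIs the shares were 0.608% [0.304, 1.09] and 0.243% [0.00616, 1.35] at days 0 and 42, which overlap, so a difference per cell is not detectable at that depth, whereas thinned to 2000 UMIs they were 2.60% [1.92, 3.44] and 0% [0, 0.900], which do not overlap. At day 0 the 160 cells with a Lgr5 UMI held 51.9 CPM of Ascl2 and 118 CPM of Smoc2, other stem cell genes, against 16.4 and 23.5 in the rest, and 38.1% [30.6, 46.1] of them were mitosis-rich against 21.8% [19.8, 23.8]. Their median depth was 16170 UMIs against 14000.

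Of the 22 crypt base genes, 19 reached 5 CPM in either library and none passed 2-fold with 10 CPM added, which understates low genes such as Lgr5 and Ascl2, with 6 above 0 and a median of -0.27. Ascl2, the transcription factor that holds stem cell identity, stood at 20.0 CPM [18.4, 21.8] at day 0, 0 at day 7 and 9.64 [7.06, 12.9] at day 42. Smoc2 stood at 33.2, 1.97 and 20.3 CPM, Lrig1, a brake on growth factor receptors, at 52.8, 9.85 and 29.8 CPM (log2 ratio -0.66 [-0.90, -0.41]), and Rnf43, which removes Wnt receptors, at 33.8, 15.8 and 20.8 CPM (-0.51 [-0.78, -0.24]). All of these were highest in the untreated library. Sox9 and Myb, transcription factors of the progenitor zone, stood at 151 and 153 CPM and at 115 and 124 CPM at days 0 and 42, with log2 ratios of 0.02 and 0.10.

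The 10 Wnt targets measured had a median of -0.11, with 4 above 0. One passed 2-fold: Ccnd1, the G1 cyclin, stood at 66.6 CPM at day 0, 228 at day 7 and 150.5 at day 42 (log2 ratio 1.07 [0.91, 1.22]). Axin2, the feedback inhibitor used as a Wnt readout, stood at 26.2, 5.91 and 22.2 CPM (-0.17 [-0.44, 0.10]), and Myc at 19.6, 28.6 and 18.7 CPM. Ccnd1 levels in cluster 2 were 19.6 and 40.9 CPM and in cluster 15 were 21.3 and 76.4 CPM at days 0 and 42.

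Notch signalling keeps crypt progenitors from becoming secretory. Hes1, its main effector in the gut, stood at 532, 239 and 347 CPM at days 0, 7 and 42 (log2 ratio of day 42 to day 0 -0.60 [-0.69, -0.51]), and Notch1 at 42.4, 30.5 and 32.3 CPM (-0.31 [-0.55, -0.06]). Both were highest at day 0. The 6 Notch genes measured had a median of -0.05 with 2 above 0, and none passed 2-fold. The Notch median lay further below 0 in thinned cells, in mitosis-rich cells and in cells with no mitosis UMI, with values in the last section.

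Day 42 was compared with day 0 across all genes of the cluster. Of 9963 genes that reached 5 CPM on day 0 or day 42, 45 (0.452%) were at least 2-fold higher at day 42 and 50 (0.502%) at least 2-fold lower. These counts were 136 and 182 with 1 CPM added in place of 10, and 76 and 118 in cells thinned to 1000 UMIs. The lower count was smaller when the cells with the highest doublet scores were left out, with the value in the last section. In cluster 2 the corresponding shares were 1.29% higher and 0.254% lower, and in cluster 15 they were 1.4% and 0.479%. The genes named next are the 12 with the highest and the 12 with the lowest ratio among those at 100 CPM or more in either library, and since the ratio chose them, their ratios are a description. The next gene on the higher side was at 1.07 and on the lower side at -0.97, and 12 of 12 higher and 11 of 12 lower genes passed 2-fold.

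**Figure D4:**
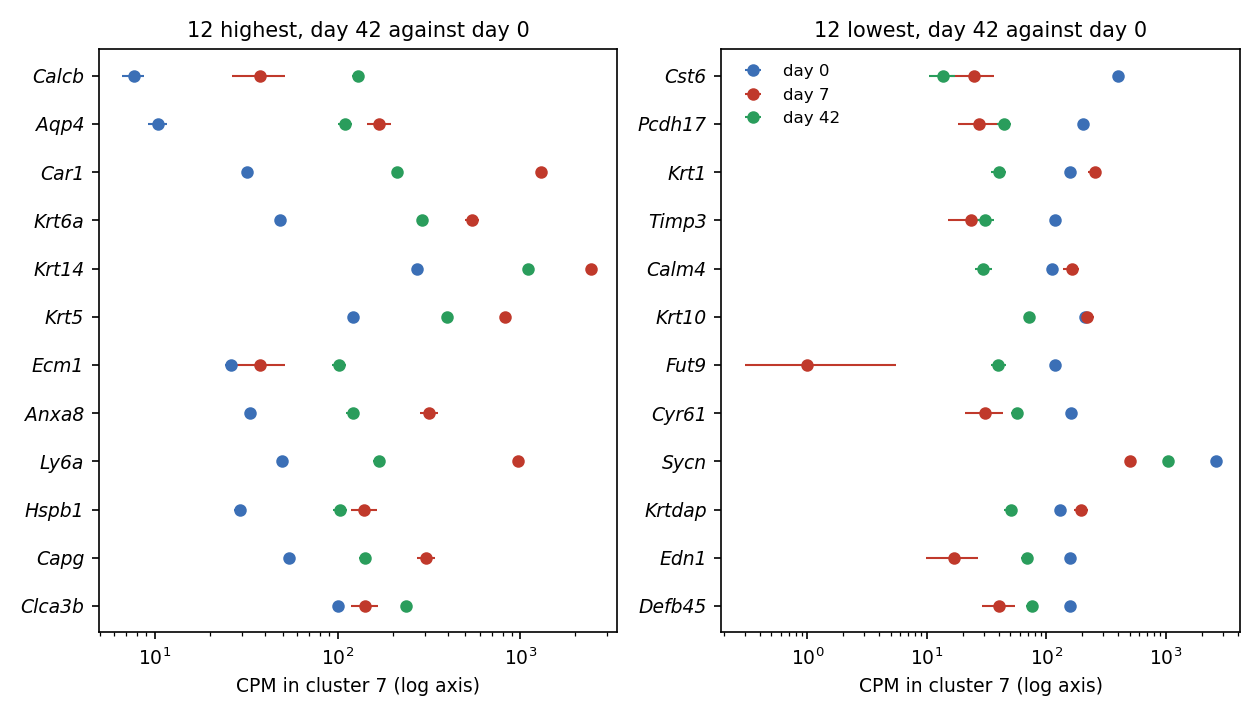
Level in cluster 7 (CPM, log axis) of the 12 genes with the highest (left) and the 12 with the lowest (right) ratio of day 42 to day 0, with exact 95% Poisson intervals, 1 pooled library per day. For 9 of the 12 higher genes the day 7 value lies beyond that of day 42, whereas for Calcb, Ecm1 and Clca3b it lies between the other days.

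Aqp4, a water channel, was among the higher genes found in many cells. It stood at 10.3 CPM [9.17, 11.6] at day 0, 168 [144, 196] at day 7 and 110 [100.4, 119] at day 42, so that day 42 lay between the untreated and the colitic library (log2 ratio to day 0 2.56 [2.35, 2.76]). An Aqp4 UMI was found in 10.9%, 63.6% and 57.0% of cells, and after thinning to 1000 UMIs in 0.884% [0.506, 1.43], 15.2% [5.11, 31.9] and 10.9% [8.10, 14.4]. No T cell of any day had one. Without the 10 cells of each library with most Aqp4 UMIs the ratio was 2.50. In cluster 2 Aqp4 stood at 2.12 and 41.5 CPM at days 0 and 42 (2.09), and in cluster 15 at 0.853 and 9.23 CPM (0.83). Within cluster 7 it was about equal in mitosis-rich cells (99.4 CPM [86.3, 114]) and the rest (117 CPM [105, 131]) at day 42.

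Clca3b, of the calcium-activated chloride channel regulator family, and Ly6a, the surface protein Sca-1 that marks injured gut epithelium, were also spread over many cells. Clca3b stood at 101 CPM [97.0, 105] at day 0, 141 [119, 166] at day 7 and 238 [225, 253] at day 42 (log2 ratio 1.17 [1.03, 1.30]), and a UMI was found in 43.7%, 69.7% and 68.9% of cells, or 9.12%, 15.2% and 20.0% after thinning, but in no T cell. It was highest at day 42, unlike Aqp4. Ly6a stood at 49.6 CPM [47.0, 52.3], 978 [918, 1041] and 169 [157, 181] (1.58 [1.42, 1.74]), with a UMI in 30.3%, 97.0% and 54.9% of cells, or 3.87%, 63.6% and 14.4% after thinning. T cells, which express Ly6a themselves, held it at 90.5, 317 and 241 CPM, with a UMI in 15.5%, 32.2% and 26.4% of cells, or 11.3%, 18.5% and 18.9% after thinning, so that at days 0 and 42 the thinned share in cluster 7 lay below that of T cells. In cluster 2 Ly6a stood at 197 and 824 CPM at days 0 and 42.

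Car1, the carbonic anhydrase of the colon surface, rested on few cells. It stood at 32.0, 1296 and 210.5 CPM at days 0, 7 and 42 (log2 ratio 2.39 [2.23, 2.55]), but 10 cells held 79.3% of its day 42 UMIs, and without the 10 highest cells of each library the ratio was 0.87. Calcb, a calcitonin gene-related peptide, was as uneven: it stood at 7.65, 37.4 and 130 CPM (2.98, or 2.45 without the 10 highest cells), with 10 cells holding 80.2% of its UMIs at day 0 and 60.7% at day 42, and keratinocytes held it at 87.7, 408 and 1356 CPM. T cells held Calcb at 1.81, 57.3 and 25.1 CPM.

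The other higher genes included keratin genes of squamous epithelium. Krt14, the keratin of basal squamous cells, stood at 272 CPM [265, 278] at day 0, 2425 [2330, 2523] at day 7 and 1109 [1079, 1139] at day 42 (log2 ratio 1.99), lowest in the untreated library. The share of cluster 7 cells with a Krt14 UMI was 34.2%, 97.0% and 80.3%, or 8.13%, 42.4% and 27.0% after thinning, while the T cell share was 15.5%, 68.6% and 59.5%, or 11.8%, 45.4% and 41.1%. After thinning the Krt14 share in cluster 7 was below that in T cells on each day, with overlapping intervals on all 3 days, whereas the T cell level was 308, 621 and 772 CPM, below that of cluster 7 at days 7 and 42. The part of free RNA in the Krt14 values was not tested. In endothelial cells Krt14 stood at 334, 1076 and 2017 CPM.

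Krt6a (48.6, 546 and 289 CPM at days 0, 7 and 42) and Krt5 (121, 828 and 398 CPM) followed the order of Krt14, and in T cells Krt6a stood at 36.2, 145 and 191 CPM and Krt5 at 172, 199 and 386 CPM. Ecm1, Anxa8, Hspb1 and Capg, which keratinocytes also express, had log2 ratios of 1.63, 1.59, 1.53 and 1.23. In T cells Ecm1 stood at 12.7 and 75.2 CPM, Anxa8 at 19.9 and 45.1, Hspb1 at 12.7 and 55.2 and Capg at 443 and 662 CPM at days 0 and 42. Of the 12 higher genes, 10 were also at least 2-fold higher at day 42 in cluster 2 and 10 in cluster 15, all from the same pair of libraries. Over all genes tested in those clusters, the shares were 1.29% and 1.4%.

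Of the 12 lower genes, 3 were at least 2-fold lower in cluster 2 and 2 in cluster 15, beside 0.254% and 0.479% of all genes tested there. Pcdh17, a cell adhesion protocadherin, stood at 202 CPM [196, 207] at day 0, 27.6 [18.3, 39.9] at day 7 and 44.6 [38.9, 51.1] at day 42 (log2 ratio -1.95 [-2.15, -1.76]). A UMI was found in 69.2%, 39.4% and 21.8% of cells, or 16.1%, 3.03% and 5.84% after thinning to 1000 UMIs, and in 0.457%, 0% and 0% of T cells, or 0.513%, 0% and 0%. Endothelial cells also held it, at 318, 127 and 191 CPM, and the endothelial markers in cluster 7 summed to 3.29, 0.985 and 3.14 CPM. The source of the Pcdh17 UMIs was not tested. Pcdh17 was also lower in cluster 2, at 47.3 and 8.37 CPM (-1.64), and in cluster 15, at 76.5 and 29.4 CPM (-1.14). At day 0 it stood at 274 CPM [263, 286] in mitosis-rich cells and 171 [165, 177] in the rest, and at day 42 at 39.3 [31.2, 48.8] and 48.7 [40.8, 57.8] CPM.

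Fut9, a fucosyltransferase that builds the Lewis x sugar, stood at 118 CPM [114, 122] at day 0, 0.985 [0.0249, 5.49] at day 7 from a single UMI, and 39.6 [34.2, 45.7] at day 42 (log2 ratio -1.36 [-1.58, -1.15]). A UMI was found in 56.0%, 3.03% and 24.3% of cells, or 10.4%, 0% and 3.41% after thinning, and in no T cell. Cluster 2 held 10.6 and 5.06 CPM of it and cluster 15 held 17.4 and 18.5 CPM at days 0 and 42. Edn1, the peptide endothelin-1, stood at 159 [154, 164], 16.8 [9.76, 26.8] and 68.8 [61.5, 76.6] CPM (-1.10 [-1.28, -0.92]), with -0.21 in cluster 2 and -0.50 in cluster 15. Fut9 and Edn1 were thus highest in the untreated library and lowest at day 7.

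Sycn was the lower gene with the most molecules. It stood at 2618 CPM [2599, 2637] at day 0, 502 [460, 548] at day 7 and 1040 [1011, 1069] at day 42 (log2 ratio -1.32 [-1.37, -1.27]), against -0.73 in cluster 2 and -0.23 in cluster 15. A UMI was found in 98.2%, 97.0% and 81.1% of cells, or 75.1%, 36.4% and 44.8% after thinning, and in T cells in 4.57%, 0.847% and 3.31%, or 1.54%, 0% and 2.22%. At day 0 it was lower in mitosis-rich cells (1856 CPM) than in the rest (2935 CPM), and at day 42 the values were 642 and 1343 CPM. Defb45, at -0.97 [-1.15, -0.80] the weakest of the 12, had a UMI in 72.4%, 48.5% and 44.4% of cells, or 13.1%, 0% and 7.79% after thinning.

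Timp3, an inhibitor of matrix proteases, stood at 118, 23.6 and 30.8 CPM at days 0, 7 and 42 (log2 ratio -1.65), and Cyr61, a matricellular target of YAP, at 162, 30.5 and 57.0 CPM (-1.36). In fibroblasts Timp3 stood at 835, 783 and 647 CPM and Cyr61 at 252, 142 and 169 CPM, and the fibroblast markers in cluster 7 were lower at the later days too, with Col3a1 at 73.5, 1.97 and 2.52 CPM and Dcn at 86.2, 0.985 and 2.52 CPM. Whether these came from the cluster's own cells was not tested. In cluster 15 Cyr61 had a log2 ratio of -1.58 and in cluster 2 of 0.55.

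The remaining lower genes are those of differentiating squamous cells: Krt1 (-1.74), Krt10 (-1.44), Calm4 (-1.62), Krtdap (-1.22) and Cst6 (-4.11). Much of their signal lay in few cells of cluster 7, although a Cst6 UMI was found in 28.6% of its day 0 cells. At day 0, 10 of 1809 cells held 91.2% of Cst6, 61.8% of Krt1, 56.2% of Krt10, 47.3% of Calm4 and 46.4% of Krtdap UMIs. Without the 10 highest cells of each library the Cst6 ratio was -1.19, and without the 25% of cells with most keratinocyte marker UMIs, a setting chosen after the data were seen, the ratios of Krt1 and Krt10 were 0.03 and 0.10. Krt1 and Krt10 are keratinocyte markers, so the removed cells were picked partly by these genes, and their ratios there are a description only. Keratinocytes themselves held Cst6 at 4713, 1921 and 813 CPM at days 0, 7 and 42, and T cells at 1117, 169 and 70.2 CPM.

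At day 7, all 12 higher genes were above their day 0 level, and 8 of the 12 lower genes were below it, 7 of them below their day 42 level too. The exceptions were Krt1, Krt10, Calm4 and Krtdap, at 255, 218, 163 and 196 CPM on day 7 against 158, 212, 112 and 131 on day 0. The same day 0 values had served to choose the genes, so these counts are a description only.

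Mature absorptive genes were higher at day 42 within the cluster. Of 25 listed, 19 reached 5 CPM, 17 of those had a ratio above 0, and 2 passed 2-fold, Aqp4 and Car1, with a median of 0.53. Lypd8, which keeps flagellated bacteria from the epithelium, stood at 1659, 6714 and 2585 CPM at days 0, 7 and 42 (log2 ratio 0.64 [0.60, 0.68]), and a UMI was found in 70.1%, 93.9% and 80.5% of cells after thinning, against 98.5%, 100% and 99.5% unthinned. T cells held a Lypd8 UMI in 5.13%, 3.70% and 3.33% of cells thinned and 10.96%, 12.7% and 8.26% unthinned. Muc3, a membrane mucin, stood at 759, 1135 and 1128 CPM (0.57 [0.51, 0.62]), Cdhr5, of the brush border, at 70.3, 215 and 113 CPM (0.61 [0.44, 0.78]), and Krt20 at 6.98, 70.9 and 20.5 CPM (0.85 [0.56, 1.13]). Lypd8, Cdhr5 and Krt20 were highest at day 7. In cluster 2 the same list had a median of 0.54, and in cluster 15 of 0.21. The levels stayed far from those of cluster 2 at day 42, where Lypd8 stood at 23885 CPM and Krt20 at 646 CPM.

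**Figure D5:**
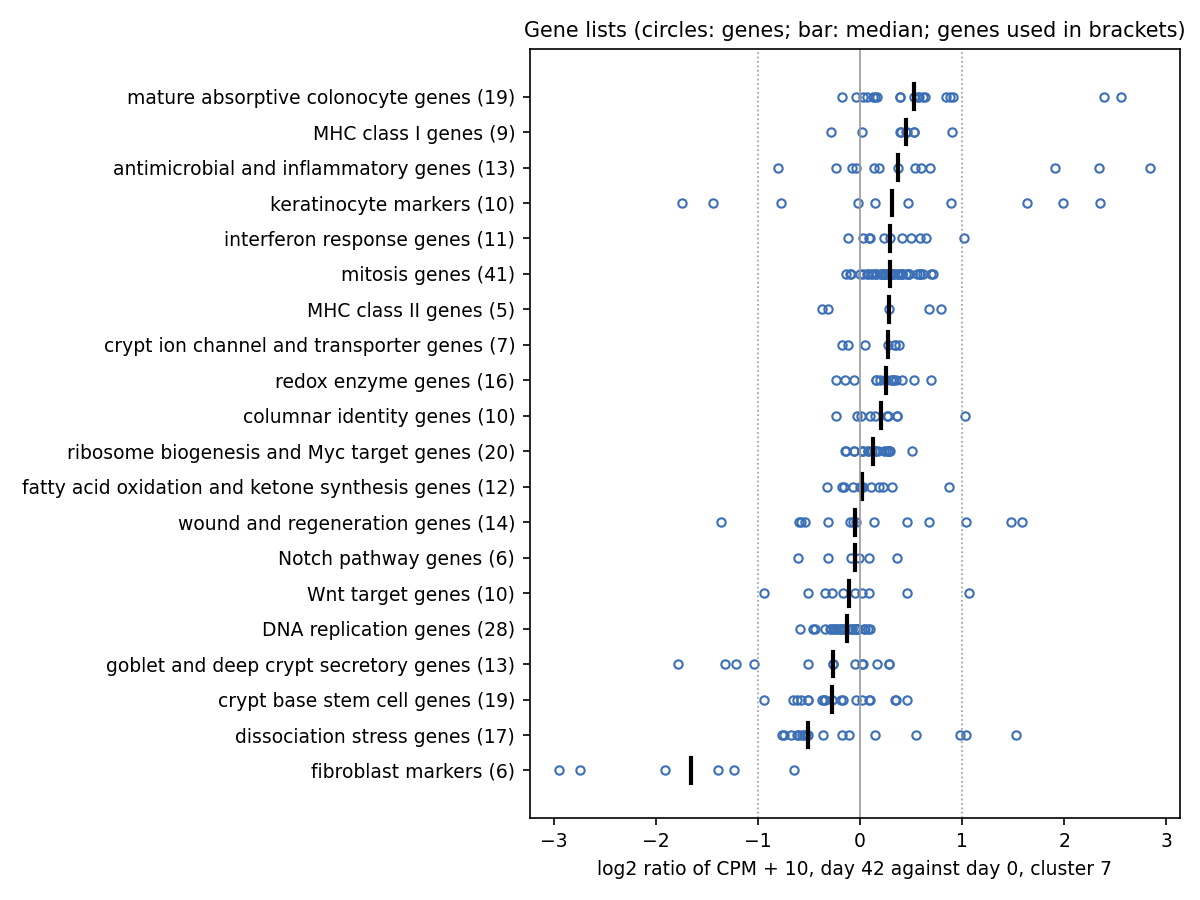
Log2 ratio of CPM + 10, day 42 against day 0, for the genes of 20 lists in cluster 7 (circles) with the list's median (bar), genes at 5 CPM or more in either library. Dotted lines mark 2-fold, and the medians run from -1.65 for fibroblast markers to 0.53 for mature absorptive genes.

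Ion transport genes let crypts secrete fluid. Of 7 measured, 5 had a ratio of day 42 to day 0 above 0, the median was 0.28 (0.049 with no minimum CPM) and none passed 2-fold. Cftr, the chloride channel mutated in cystic fibrosis, stood at 72.0 CPM at day 0, 24.6 at day 7 and 96.6 at day 42 (log2 ratio 0.38 [0.20, 0.56]), Slc12a2, the basolateral chloride loader, at 191, 91.6 and 245 CPM (0.34 [0.23, 0.46]), and Kcnq1, the partner of Kcne3, at 69.1, 10.8 and 62.7 CPM (-0.12 [-0.32, 0.08]). Cftr and Kcnq1 were higher than in the other columnar clusters pooled at both days, with log2 ratios of 2.09 and 2.22 at day 0 and 2.04 and 1.98 at day 42. The whole ion transport list did not share this. It summed to 682 and 791 CPM in cluster 7 and to 1355 and 1085 CPM in cluster 15 at days 0 and 42.

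Redox enzymes had a median of 0.26, with 13 of 16 above 0 and none past 2-fold. Prdx6, a peroxiredoxin far more abundant in cluster 2 (4282 and 5880 CPM at days 0 and 42), stood at 280 CPM at day 0, 1849 at day 7 and 461 at day 42 (0.70 [0.61, 0.79]). Txnrd1, thioredoxin reductase, stood at 99.5, 145 and 148 CPM (0.53 [0.38, 0.68]). Gstm1, a glutathione transferase and one of the leading genes, stood at 281, 35.5 and 238 CPM (-0.23 [-0.34, -0.12]). Fatty acid oxidation genes, which burn the butyrate made by gut bacteria, had a median of 0.02 with 7 of 12 above 0.

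Most MHC class I and interferon response genes had a ratio of day 42 to day 0 above 0, beside 52.9% of all genes tested. MHC class I genes had a median of 0.45 with 8 of 9 above 0, led by Psmb8, an immunoproteasome subunit, at 38.3, 72.9 and 80.5 CPM (0.91 [0.71, 1.11]), and H2-K1 stood at 246, 282 and 359 CPM (0.53 [0.43, 0.63]). Interferon response genes had a median of 0.30 with 10 of 11 above 0, and Ifitm3, a membrane block to viruses, passed 2-fold at 95.6, 275 and 205 CPM (1.02 [0.88, 1.16]). MHC class II genes summed to 68.3, 55.2 and 106 CPM, with a median of 0.28 (-0.43 in cells thinned to 1000 UMIs) and 3 of 5 above 0, with 71.7% of the Cd74 UMIs of day 0 in 10 cells. In cluster 2 the medians of these lists were 0.75 for class I, 0.85 for interferon and 1.65 for class II.

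Antimicrobial and inflammatory genes had a median of 0.37 with 9 of 13 above 0. The 3 that passed 2-fold were S100a8 (0.222, 87.7 and 41.9 CPM at days 0, 7 and 42), S100a9 (0.370, 88.7 and 64.4 CPM) and Ltf (2.29, 3.94 and 36.3 CPM), all abundant in neutrophils. At day 42, 10 cells held 91.5% of S100a8, 94.1% of S100a9 and 59.0% of Ltf UMIs. The whole list summed to 1759, 1184 and 1841 CPM in cluster 7, and its medians in clusters 2 and 15 were 1.03 and 1.47. Duox2, an oxidase, stood at 18.2, 37.4 and 20.96 CPM in cluster 7, but at 16.4 and 151 CPM in cluster 2 at days 0 and 42. Pigr, which carries immunoglobulin A across the cell, stood at 1659, 650.2 and 1574 CPM (-0.08 [-0.12, -0.03]).

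Wound and regeneration genes had no common direction in cluster 7. Of 14 measured, 6 had a ratio above 0 and the median was -0.05, against 0.67 in cluster 2 and 0.55 in cluster 15. Ly6a, Tm4sf1 (3.44, 11.8 and 27.5 CPM, with 84.0% of the day 42 UMIs in 10 cells) and Anxa1 (214, 705 and 452 CPM) passed 2-fold higher and Cyr61 2-fold lower. Clu, a marker of revival stem cells after injury, stayed at 2.11, 3.94 and 3.14 CPM at days 0, 7 and 42.

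Goblet and deep crypt secretory genes had a median of -0.26 (0.072 in cells thinned to 1000 UMIs, 0.065 as a mean of CPM per cell and 0.27 in cells below the mitosis limit) with 5 of 13 above 0, and 4 passed 2-fold lower: Zg16 (39.5, 6.90 and 4.40 CPM), Sycn, Tff3 (25.4, 10.8 and 5.24 CPM) and Spink1 (17.4, 2.96 and 3.35 CPM). Except for Sycn they sat in few cells, with 10 cells holding 91.5% of Zg16, 68.2% of Tff3 and 83.0% of Spink1 UMIs at day 0. Agr2, which folds mucins, stood at 875, 563 and 982 CPM (0.17 [0.11, 0.22]). The goblet list had a median of 0.70 in cluster 2 and of 0.81 in cluster 15. Of 9 enteroendocrine hormone genes 1, Pyy, reached 5 CPM, at 5.36, 4.93 and 4.19 CPM.

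Dissociation stress genes, which rise in tissue digestion, were mostly lower at day 42, with a median of -0.51 and 5 of 17 above 0. None passed 2-fold lower and 2 passed 2-fold higher. The sums were 14082, 6979 and 10361 CPM at days 0, 7 and 42. Jun stood at 1802, 491 and 1056 CPM (-0.77 [-0.82, -0.71]) and Egr1 at 1308, 505 and 814 CPM (-0.68 [-0.74, -0.62]), whereas the heat shock genes Hspa1a (28.2, 39.4 and 68.3 CPM, 1.03) and Hspb1 were higher. The same list had a median of 0.14 in cluster 2 and -0.54 in cluster 15. The part of handling in the differences between days was not tested, and with 1 library per day it cannot be told apart from the treatment.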

How the data were processed

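The authors deposited raw UMI counts per gene and cell, 31053 genes by 37080 cells, from 3 libraries of 10x Chromium 3' RNA. Cell Ranger 3.0.2 and mm10 are named in the submitters' processing notes. The filter on cells, the clustering and the naming of cells are not given in the sources used here, and the clusters, names and days come from the authors' deposited cell table. The deposited size factor is a ratio that the authors computed, equal to each cell's total count over 1 constant, and it was used to check that table and matrix share an order. The deposited embedding score served only to describe position: the median coordinates of cluster 7 were -6.53 and 9.69 at day 0 and -6.47 and 9.22 at day 42.

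Counts were summed over the cells of a cluster and day and written as CPM. Genes that reached 5 CPM on day 0 or day 42 were compared as log2 ratios with 10 CPM added, in Python 3.11.15 with numpy 2.4.6, scipy 1.17.1 and pandas 2.3.3. There was no test, since each day has 1 library. Intervals are exact 95% intervals for counting error, and a count of 0 was given a floor of 3 counts. Named genes were the 6 markers, the 15 leading genes, the 12 highest and 12 lowest ratios at 100 CPM or more in either library (leaving out genes of mitochondria, ribosomal proteins, haemoglobins and immunoglobulins, and sex-linked genes such as Xist) and list members. Members and lists were chosen with earlier results of these data known. Gene IDs matched GENCODE M21 for 30934 of 31053 genes, and overlapping genes were not separated further. Doublets were not removed: Scrublet (scanpy 1.11.5) marked 420, 0 and 267 cells on days 0, 7 and 42, so its threshold did not work at day 7, and the 5% of cells of each library with the highest score were left out as an alternative. Other alternatives were a filter on cells, median-of-ratios scaling, library totals that leave out mitochondrial and ribosomal genes, a mean over cells, a pseudocount of 1 CPM, no minimum CPM, thinning, cells with and without a mitosis list UMI, and leaving out the 10 highest cells. Splits at 20 mitosis UMIs per 10000 and the removal of the 25% of cells with most keratinocyte marker UMIs were chosen after the data were seen.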

Additional observations from a re-analysis of the deposited data

Results flagged for a closer look

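Spink1, a trypsin inhibitor of secretory cells, stood out because its ratio of day 42 to day 0 pointed in opposite directions in the columnar clusters. It was 17.4 CPM at day 0 and 3.35 CPM at day 42 in cluster 7 (log2 ratio -1.04), and 1099 and 2552 CPM in cluster 15 (1.21), so that the ratio in cluster 7 minus that in cluster 15 was -2.24. The difference was not tested, since each day has 1 library, and in cluster 7 83.0% of its day 0 UMIs lay in 10 cells.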

How the results depend on the processing

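No paired analysis was possible because each day has 1 pooled library. The filter on cells put the share of columnar cells in cluster 7 at 65.6% on day 0 and 32.5% on day 42. The counts of genes at least 2-fold higher (45) and lower (50) became 136 and 182 with a pseudocount of 1 CPM and 76 and 118 in cells thinned to 1000 UMIs, and the lower count became 77 with totals that leave out mitochondrial and ribosomal genes and 31 without the highest Scrublet scores. Among list medians, thinning gave 0.072 for goblet, -0.34 for Notch, -0.43 for MHC class II, -0.41 for dissociation stress and 0.11 for columnar identity genes and 0.11 for the 6 markers, whose median was -0.07. The mean of CPM per cell gave 0.065 for goblet and -0.37 for stress genes and 0.047 for the markers. No minimum CPM gave 0.049 for ion transport genes and -1.39 for fibroblast markers, which stood at -4.14 with a pseudocount of 1 CPM and at -1.78 with the smaller totals, and the pseudocount gave 0.85 for antimicrobial genes.

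Cells at or above 20 mitosis UMIs per 10000 gave -0.43 for replication, -0.16 for mitosis, -0.85 for goblet, -0.33 for Notch, -0.70 for MHC class II, 0.22 for wound and -0.57 for stress genes, -1.30 for fibroblast markers and -0.32 for the 6 markers. Those cells were selected by the mitosis genes themselves, so their mitosis median is a description only. Cells below it gave 0.27 for goblet, 0.95 for MHC class II and -0.31 for stress genes and -1.82 for fibroblast markers. Without the 25% of cells with most keratinocyte marker UMIs the medians were -0.56 for goblet genes and 1.01 for keratinocyte markers, and the ratios of Krt1 and Krt10 were 0.026 and 0.10. The removed cells were picked by the keratinocyte markers themselves, Krt1 and Krt10 among them, so the values of these markers are a description only.

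Cells with no mitosis UMI numbered 55 at day 0 and 8 at day 42. They gave 1826 higher and 2158 lower genes, and the ratios of Cyr61 (0.70), Krtdap (0.67), Ecm1 (-2.41), Hspb1 (-0.44) and Clca3b (-0.39) took the opposite sign. Calcb was at 0, so that 8 of the 12 higher genes stayed above 0 and 10 of the 12 lower genes below it. Their list medians were -0.75 for stem cell, 0.15 for Wnt target, -0.78 for replication, goblet and Notch, 0.72 for absorptive, 0.87 for ion transport, 0.39 for redox, 0.35 for fatty acid oxidation, 1.59 for antimicrobial, 0.70 for wound, -0.40 for stress and 0.46 for columnar identity genes, 6.1e-05 for keratinocyte markers and -2.24 for fibroblast markers. Cells with at least 1 mitosis UMI gave 45 higher and 48 lower genes.

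The goblet, MHC class II, Wnt, wound, mitosis and given marker medians thus took both signs under these settings, and the cause was not tested. Over all alternatives, 224 list medians stayed within the counting interval, 33 moved and 11 changed sign. Of the ratios of single named genes, 326 stayed, 157 moved and 7 changed sign, and of the shares of cells with a UMI 2 stayed and 10 moved. Unthinned shares of cells with a UMI at days 0, 7 and 42 were 39.0%, 84.8% and 47.8% for Mki67 and 10.9%, 63.6% and 57.0% for Aqp4, and thinned to 2000 UMIs they were 17.0% and 21.3% for Mki67 and 2.21% and 22.1% for Aqp4 at days 0 and 42. Leaving out 10 cells takes a larger share of day 42 than of day 0. Depth limits what the 33 cells of day 7 and genes below 10 CPM can show.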
